A study of Mus musculus with 8 samples.

Results

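The 10 circadian clock genes described here are Arntl (also called Bmal1), Npas2, Per1, Per2, Per3, Cry1, Nr1d1, Nr1d2, Dbp and Ciart, taken by gene ID from the 41591 gene rows of the count tables. All 10 were among the 16870 genes with enough counts to be tested. RNA was sequenced from whole ovaries of superovulated C57BL/6 females about 3 weeks old, in 4 Insr-Igf1r double knockout (DKO) libraries and 4 Control libraries. The mice received 4 IU of eCG, a hormone that makes follicles grow, and 48 h later 5 IU of hCG, which triggers ovulation, and ovaries were taken 12 h after hCG. In DKO mice both Insr, which encodes the insulin receptor, and Igf1r, which encodes the receptor of insulin-like growth factor 1, are deleted conditionally. Control mice were littermates that are labelled wild type and positive for Pgr-Cre, a recombinase driven by the progesterone receptor gene; the driver in the DKO mice is not named in the labels used here. The hour of day and the lighting at collection are not given in the sources used here, and with 1 collection time a shift of phase and a change of level cannot be told apart.

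In the mammalian clock, BMAL1 pairs with CLOCK or NPAS2 and switches on genes through E-boxes, among them those of the PER and CRY proteins, which then block BMAL1 and its partner. In a second loop, the REV-ERB receptors (Nr1d1, Nr1d2) repress and the ROR receptors activate Arntl through a shared site, the RORE. DBP activates genes through D-boxes, and the clock runs in granulosa, theca and luteal cells of the ovary as in most tissues.

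Promoter windows show which of these sites the genes carry close to their starts. RefSeq windows of GRCm38.p6, from 250 bases before to 50 bases after a gene start, were present for 9 of the 10 genes, and 5 of them are printed 5′ to 3′ on the gene's strand because their genes form the contrast described below: Nr1d1 and Dbp with higher DKO means, Per1 with a lower DKO mean, and Arntl and Ciart with similar means. Capitals mark the matches. Both strands were searched for the E-box CACGTG, the E-prime box CACGTT, the D-box TTATGTAA, the RORE cores TAGGTCA and TGGGTCA, the cAMP response element TGACGTCA and its core TGACGTC, which lies within it.
Nr1d1 (chr11:98775328-98775627, minus strand): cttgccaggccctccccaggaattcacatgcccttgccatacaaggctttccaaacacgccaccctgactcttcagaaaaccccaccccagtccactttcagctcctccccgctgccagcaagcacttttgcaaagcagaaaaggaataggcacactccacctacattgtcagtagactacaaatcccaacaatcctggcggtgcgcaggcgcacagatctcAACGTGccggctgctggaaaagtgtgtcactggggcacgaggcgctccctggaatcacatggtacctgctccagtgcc
Dbp (chr7:45704997-45705296, plus strand): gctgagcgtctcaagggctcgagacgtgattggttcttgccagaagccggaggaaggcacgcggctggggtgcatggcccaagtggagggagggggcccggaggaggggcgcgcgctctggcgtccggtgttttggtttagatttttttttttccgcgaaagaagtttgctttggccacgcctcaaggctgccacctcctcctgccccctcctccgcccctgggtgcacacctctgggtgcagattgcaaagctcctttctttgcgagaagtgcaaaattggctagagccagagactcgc
Per1, first of 2 windows (chr11:69098699-69098998, plus strand): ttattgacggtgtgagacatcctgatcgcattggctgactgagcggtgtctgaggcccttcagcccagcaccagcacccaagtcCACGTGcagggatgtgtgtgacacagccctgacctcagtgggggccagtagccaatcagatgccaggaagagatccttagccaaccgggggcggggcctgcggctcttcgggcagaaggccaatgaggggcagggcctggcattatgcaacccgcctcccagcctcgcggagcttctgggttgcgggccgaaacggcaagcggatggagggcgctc
Arntl, second of 2 windows (chr7:113207261-113207560, plus strand): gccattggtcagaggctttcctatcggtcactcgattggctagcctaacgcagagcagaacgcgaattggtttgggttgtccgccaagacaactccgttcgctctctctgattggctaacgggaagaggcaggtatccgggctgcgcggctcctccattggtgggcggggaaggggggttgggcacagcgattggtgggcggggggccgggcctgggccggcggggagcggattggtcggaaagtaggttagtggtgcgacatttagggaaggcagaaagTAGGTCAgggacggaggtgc
Ciart (chr3:95882179-95882478, minus strand): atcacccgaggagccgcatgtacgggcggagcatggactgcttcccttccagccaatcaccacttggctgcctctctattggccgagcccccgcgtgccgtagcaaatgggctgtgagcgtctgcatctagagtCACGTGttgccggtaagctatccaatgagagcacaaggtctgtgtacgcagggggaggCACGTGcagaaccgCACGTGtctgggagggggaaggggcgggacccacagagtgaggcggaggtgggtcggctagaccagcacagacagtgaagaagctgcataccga
The Nr1d1 window held 1 E-prime box at -28 from the gene start, which lies on the opposite strand and is therefore printed as AACGTG. The Ciart window held 3 E-boxes, at -116, -58 and -44, and the Per1 window held 1 at -166. The second Per1 window held TGACGTC at -132. The Arntl window held the RORE core TAGGTCA at 30 bases past the start. Cry1 had an E-box at -60 and an E-prime box at -79, and Per3 had D-boxes at -205 and -158. The windows of Dbp, Nr1d2 and Npas2 and the first Arntl window held none of these letters. Of 32851 windows of this length, 7.15% held CACGTG, 4.68% CACGTT, 0.938% TTATGTAA, 2.61% TAGGTCA, 3.98% TGGGTCA, 1.79% TGACGTCA and 3.21% TGACGTC.

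The libraries held 33145056 to 39257648 counts each. Levels are given in CPM, counts scaled to library size with TMM factors, and a gene is said to rise or fall where its p, adjusted over all genes tested, was below 0.05. Insr averaged 126 ± 16.8 CPM in DKO ovaries and 155 ± 10.3 CPM in Control ovaries (SD, n = 4 each), and Igf1r averaged 214 ± 22.4 CPM in DKO ovaries and 236 ± 28.6 CPM in Control ovaries. Neither passed the test (log2 fold change -0.30 ± 0.11 SE, adjusted p = 0.226, and -0.14 ± 0.12 SE, adjusted p = 0.639, edgeR's quasi-likelihood test), and the groups overlapped for both. The first principal component, with 38.3% of the variance, separated the 3 libraries with the lowest numbers in their sample titles (DKO 1, DKO 2 and Control 1) from the 5 with the highest (DKO 3, DKO 4 and Control 2 to 4). What these numbers stand for is not given in the labels; the sets are called the low-numbered and high-numbered runs below. Summed luteal markers did not overlap between groups, at 13330 to 17890 CPM in DKO ovaries and 7080 to 13020 CPM in Control ovaries. Of the 4 markers, 3 lay higher in every DKO library, as did 5.7% of all genes tested. Of these, 1 (Hsd3b1) passed the test as higher, as did 0.759% of all genes tested. The fourth, Star, overlapped, with counts of 32331, 30790, 123866 and 118334 in DKO libraries 1 to 4, against 37835, 84745, 91691 and 81862 in Control libraries 1 to 4. Summed fat markers did not overlap either, at 38.99 to 59.03 CPM in DKO ovaries and 67.02 to 122.7 CPM in Control ovaries. However, 1 of the 3, Plin1, passed the test as higher, as did 0.759% of all genes tested. The granulosa, theca, oocyte, endothelial, smooth muscle and immune sums overlapped, and no marker was at 0 in all libraries. Ovgp1, an oviduct marker, stood at 724 CPM in DKO 2 and 1147 CPM in Control 1, against 2.51 to 23.8 CPM in the other 6 libraries. The part of these differences in the results below was not tested, and in bulk tissue fewer cells of a type and less RNA per cell cannot be told apart.

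Of the 10 clock genes, 1 rose in DKO ovaries, Nr1d1, and none passed edgeR's test as lower, where 1 (Per1) had an unadjusted p under 0.05, nor did any with DESeq2. Across all genes tested, 212 (1.26%) passed an adjusted p of 0.05, with 128 (0.759%) higher and 84 (0.498%) lower in DKO ovaries. With the replicate number as a block, 4.4% of genes and 2 clock genes passed. The total of 212 ranged between 2 without Control 2 and 506 without Control 3. In 3 clock genes (Nr1d1, Nr1d2 and Dbp) every DKO value lay above every Control value, as in 5.7% of all genes tested, and in 1 (Per1) every DKO value lay below, as in 3.54% of all genes tested. Log2 fold changes of DKO over Control were above 0 for 5 clock genes and below 0 for 5, with a median of 0.09 against -0.02 over all genes tested. An unadjusted p under 0.05 was found for 5 clock genes (Nr1d1, Npas2, Nr1d2, Dbp and Per1) and for 15.4% of all genes tested. By role, the activator genes Arntl and Npas2 had log2 fold changes of -0.06 and 1.02. Of the 5 repressor genes Per1, Per2, Per3, Cry1 and Ciart, 4 lay below 0, Per2 and Ciart by little (-0.08 and -0.13). Both REV-ERB genes, whose products are also repressors, lay above 0, as did Dbp. Of all genes tested, 46.9% lay above 0.

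**Figure D1:**
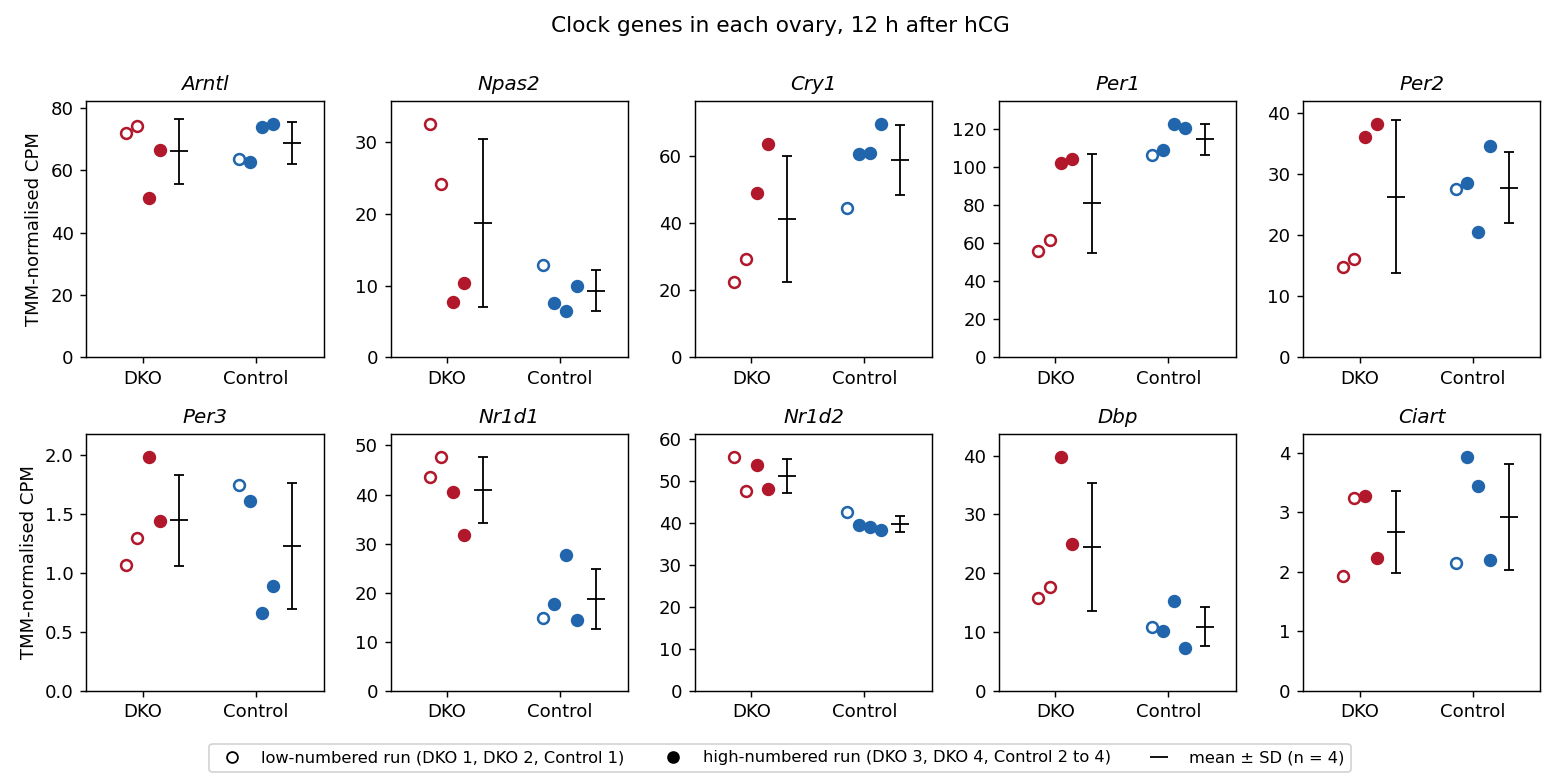
TMM-normalised CPM (linear axes from 0) of the 10 clock genes in each ovary library, DKO left of Control; points are libraries, open for the low-numbered run and filled for the high-numbered run, and bars are mean ± SD of 4. Nr1d1, Nr1d2 and Dbp (DKO above) and Per1 (DKO below) do not overlap between groups. Npas2, Cry1, Per1 and Per2 separate DKO 1 and 2 (open) from DKO 3 and 4 (filled).

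Nr1d1 and Nr1d2 encode REV-ERB alpha and beta, the receptors that repress Arntl. Nr1d1 (gene 217166, chr11:98767932-98775377, minus strand, GRCm38.p5) had 43.6, 47.6, 40.6 and 31.7 CPM in DKO libraries 1 to 4, against 14.9, 17.6, 27.6 and 14.5 CPM in Control libraries 1 to 4. The lowest DKO library lay above the highest Control library. Means were 40.9 ± 6.74 CPM in DKO ovaries and 18.6 ± 6.15 CPM in Control ovaries (SD, n = 4 each), a ratio of 2.19 and a log2 fold change of 1.13 ± 0.22 (SE), with an adjusted p of 0.0429 by edgeR's quasi-likelihood test and an exact permutation p of 0.0286, the smallest that 4 against 4 allows. Groups that do not overlap always give this exact p, here and for Nr1d2, Dbp and Per1, so it adds no support. It is not adjusted for the 10 clock genes tested. With single libraries left out the log2 fold change of Nr1d1 was 1.03 to 1.39, its direction being fixed by groups that do not overlap. The call was lost without any one of Control 1, 2 and 4 and DKO 1, 2 and 3 (adjusted p 0.0595 to 0.176, edgeR). It was kept without Control 3 (adjusted p 0.00649, edgeR), and only just without DKO 4 (0.049998). In the high-numbered run alone, 2 DKO against 3 Control, the log2 fold change was 0.88 with an adjusted p of 0.217, where 0.982% of genes passed, while a term for the run over all libraries gave 1.12 and 0.0398. Its 3′ end overlaps Thra on the opposite strand; Thra did not pass the test (log2 fold change 0.16, adjusted p 0.70), and the counting used strand.

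Nr1d2 (gene 353187, chr14:18204056-18239106, minus strand) had 55.5, 47.4, 53.7 and 47.9 CPM in DKO libraries 1 to 4, against 42.4, 39.3, 38.9 and 38.2 CPM in Control libraries 1 to 4. The groups did not overlap, and the replicates of each group were close together. The means were 51.1 ± 4.1 CPM in DKO ovaries and 39.7 ± 1.85 CPM in Control ovaries (SD, n = 4 each). The log2 fold change of 0.36 ± 0.09 (SE) did not pass the test over all genes (adjusted p 0.0978, edgeR). Its exact permutation p of 0.0286 follows from the groups not overlapping.

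Dbp (gene 13170, chr7:45705093-45710203, plus strand) encodes a D-box-binding activator that is a direct output of BMAL1 with its partner. Its values were 15.7, 17.7, 39.7 and 24.9 CPM in DKO libraries 1 to 4, against 10.9, 10.1, 15.2 and 7.26 CPM in Control libraries 1 to 4. All 4 DKO libraries lay above all 4 Control libraries, and DKO 3 and 4 lay furthest above. With means of 24.5 ± 10.9 CPM in DKO ovaries and 10.9 ± 3.28 CPM in Control ovaries (SD, n = 4 each), the log2 fold change of 1.17 ± 0.32 (SE) was as large as that of Nr1d1 and did not pass the test (adjusted p 0.118, edgeR; exact permutation p 0.0286). A term for the run gave 1.23 ± 0.27 (SE) and an adjusted p of 0.0477, where 3.12% of all genes passed, and the high-numbered run alone gave 1.59 and 0.0727. The adjusted p of Dbp and Nr1d2 was below 0.05 with DESeq2 (0.00673 and 0.00974) and with limma-voom and sample quality weights (0.0272 and 0.0175). Those tools called 6.63% and 9.79% of all genes. Sphk2, which overlaps Dbp on the opposite strand, did not pass the test (log2 fold change 0.08, adjusted p 0.722).

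The activator genes gave no call. Arntl (gene 11865, chr7:113178470-113314126, plus strand), which encodes BMAL1, had 72.1, 74.4, 51.2 and 66.5 CPM in DKO libraries 1 to 4, against 63.5, 62.5, 74.1 and 74.9 CPM in Control libraries 1 to 4. The groups overlapped, with DKO 3 the lowest of all libraries, and the log2 fold change was -0.06 ± 0.13 (SE; adjusted p 0.879, edgeR). Npas2 (gene 18143, chr1:39193715-39363240, plus strand), a partner of BMAL1 that stands in for CLOCK, had 32.6, 24.2, 7.7 and 10.4 CPM in DKO libraries 1 to 4, against 12.9, 7.6, 6.49 and 10.01 CPM in Control libraries 1 to 4. DKO 1 and 2 lay above all Control libraries, whereas DKO 3 and 4 lay within the Control range. The log2 fold change of 1.02 ± 0.45 (SE) did not pass the test (adjusted p 0.323, edgeR), and within the high-numbered run it was 0.19.

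Per1, Per2 and Cry1, genes of the proteins that block BMAL1, had their lowest values in DKO 1 and 2. Per1 (gene 18626, chr11:69095138-69109965, plus strand), which also responds quickly to cAMP and glucocorticoids, had 55.7, 61.5, 102 and 104 CPM in DKO libraries 1 to 4, against 106, 109, 123 and 120 CPM in Control libraries 1 to 4. All DKO libraries lay below all Control libraries, but DKO 3 and 4 were close to the lowest of them. Means were 80.9 ± 25.9 CPM in DKO ovaries and 115 ± 8.21 CPM in Control ovaries (SD, n = 4 each), and the log2 fold change of -0.50 ± 0.20 (SE) did not pass the test (adjusted p 0.267, edgeR; exact permutation p 0.0286). Cry1 (gene 12952, chr10:85131700-85185054, minus strand), the gene of a cryptochrome repressor, had 22.6, 29.2, 49.0 and 63.8 CPM in DKO libraries 1 to 4, against 44.5, 60.6, 60.9 and 69.7 CPM in Control libraries 1 to 4. DKO 1 and 2 lay below every Control library, and DKO 3 and 4 lay within the Control range; the log2 fold change was -0.52 ± 0.31 (SE; adjusted p 0.475, edgeR). Per2 (gene 18627, chr1:91415977-91459402, minus strand) had 14.8, 16.1, 36.0 and 38.2 CPM in DKO libraries 1 to 4, against 27.5, 28.5, 20.4 and 34.6 CPM in Control libraries 1 to 4. DKO 1 and 2 lay below every Control library, and DKO 3 and 4 above every Control library, so the group difference was small (-0.08 ± 0.33, SE; adjusted p 0.936, edgeR). In the high-numbered run alone the log2 fold change of Per2 was 0.43, opposite in sign.

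**Figure D2:**
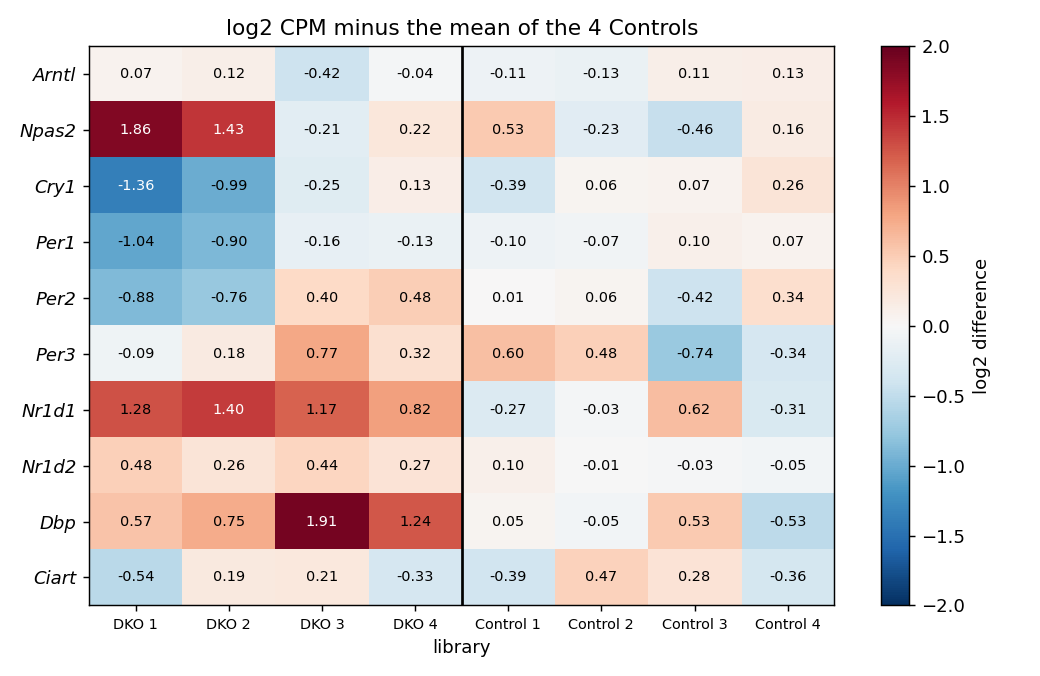
Log2 CPM of each clock gene in each library minus the mean of the 4 Control libraries, DKO columns left of Control columns (colour scale from -2 to 2). DKO 1 and 2 share low Per1, Per2 and Cry1 and high Npas2, DKO 3 and 4 stay near the Control mean for Per1 and show the largest Dbp differences, and Nr1d1 is above 0 in all 4 DKO libraries.

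Ciart and Per3 were scarce. Ciart (gene 229599, chr3:95878500-95882242, minus strand) encodes CHRONO, a further repressor of BMAL1 with its partner, and Per3 (gene 18628, chr4:150997018-151044723, minus strand) the third PER protein. Ciart averaged 2.67 ± 0.688 CPM in DKO ovaries and 2.93 ± 0.895 CPM in Control ovaries (SD, n = 4 each; log2 fold change -0.13 ± 0.30 SE, adjusted p 0.878, edgeR), on 72 to 139 counts per library. Per3 averaged 1.44 ± 0.387 CPM in DKO ovaries and 1.23 ± 0.534 CPM in Control ovaries (0.23 ± 0.37, SE; adjusted p 0.82, edgeR), on 24 to 75 counts, and its level is uncertain because its annotated exons lie on 2 sequences of the assembly. The groups overlapped for both genes.

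Per kilobase of exon, Nr1d1 had the highest mean of the 10 in DKO ovaries, at 14.8 CPM per kb (range 11.5 to 17.2), and the fifth in Control ovaries, at 6.74 (5.24 to 9.995). Cry1 was second by the mean in DKO ovaries, at 12.8 CPM per kb, in a range of 7.03 to 19.9 that contains that of Nr1d1, so the order of these 2 is not resolved, and first in Control ovaries, at 18.3. Arntl, Nr1d2 and Per1 followed in DKO ovaries between 10.98 and 11.5, in ranges that overlap, so their order is not resolved. Per2 and Npas2 were lower, at 4.35 and 4.18 CPM per kb in DKO ovaries and at 4.60 and 2.07 in Control ovaries, and Ciart and Per3 were lowest in both groups.

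The log2 ratio of Nr1d1 to Arntl, chosen after the values were seen and given without a test, was -0.72, -0.64, -0.34 and -1.07 in DKO libraries 1 to 4, against -2.10, -1.83, -1.42 and -2.37 in Control libraries 1 to 4. For Dbp to Per1 the ratio was -1.83, -1.80, -1.37 and -2.06 in DKO libraries, against -3.29, -3.42, -3.01 and -4.05 in Control libraries. Neither pair of groups overlapped. For Dbp to Per1 this was fixed beforehand, since all DKO libraries lay above all Control libraries for Dbp and below them for Per1. For Npas2 to Clock the groups did overlap, with -1.44, -2.11, -3.49 and -3.39 in DKO libraries 1 to 4 and -3.25, -3.90, -3.57 and -3.91 in Control libraries 1 to 4.

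Across the 8 libraries, Arntl was set against each of the other 9 clock genes. None of the 9 relations passed after Benjamini-Hochberg adjustment. The strongest was with Per3 (Pearson r -0.805, exact permutation p 0.0132, adjusted 0.119; Spearman rho -0.857, exact permutation p 0.0107, adjusted 0.0963), and r was -0.785 without the 2 libraries farthest from the median of Arntl. Between Arntl and Nr1d1, r was -0.049 (exact permutation p 0.923) over all libraries and 0.268 with each group centred on its mean. The groups of Nr1d1 do not overlap, so the first value mixes the group difference with the spread within groups. Of 11557 genes, those most alike to Arntl by r of group-centred log2 CPM over the 8 libraries were Cdyl2 (0.974), Slc23a2 (0.951), Ext1 (0.948), Nfkb2 (0.943) and Hs6st2 (0.943). Those most alike to Per1 were Paqr4 (0.988), Fdft1 (0.986), Aars (0.985), Slc35g1 (0.984) and Hbb-bs (0.982), and among those most alike to Dbp were Ica1 (0.974), Ntf5 (0.972), Mvk (0.972) and Rapgef3 (0.962). These genes were picked as the highest of 11557 values of r, each over only 8 libraries, so a high r follows from the selection. Shared regulation was not tested.

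Of 10 core partners of these genes, none passed edgeR's test in either direction. Their median log2 fold change was -0.19 (4 above 0, 6 below). An unadjusted p under 0.05 was found for 3 (Rorb, Nfil3 and Bhlhe40, all below 0), against 15.4% of all genes tested. With DESeq2, 1 (Nfil3) passed, as did 6.63% of all genes tested. Clock averaged 97.0 ± 11.5 CPM in DKO ovaries and 116 ± 30.3 CPM in Control ovaries (SD, n = 4 each; log2 fold change -0.26 ± 0.18 SE, adjusted p 0.561, edgeR).

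Nfil3, a D-box repressor that competes with DBP, averaged 70.4 ± 34.6 CPM in DKO ovaries and 146 ± 36 CPM in Control ovaries (SD, n = 4 each), a log2 fold change of -1.06 ± 0.34 (SE) that did not pass the test (adjusted p 0.179, edgeR). Bhlhe40, an E-box repressor, averaged 174 ± 49.8 CPM in DKO ovaries and 259.03 ± 31.2 CPM in Control ovaries (-0.58 ± 0.19, SE; adjusted p 0.177, edgeR). Rorb, with under 2 CPM in every library, had a log2 fold change of -1.69 ± 0.54 (SE; adjusted p 0.169, edgeR). Rora, Cry2, Arntl2, Bhlhe41, Tef and Hlf had log2 fold changes of 0.30, -0.13, -0.31, 0.28, 0.15 and 0.35 and adjusted p-values of 0.591 to 0.725 (edgeR). Nfil3 passed with DESeq2, with quality weights and with the term for the run, at adjusted p-values of 0.0200, 0.0316 and 0.0222.

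**Figure D3:**
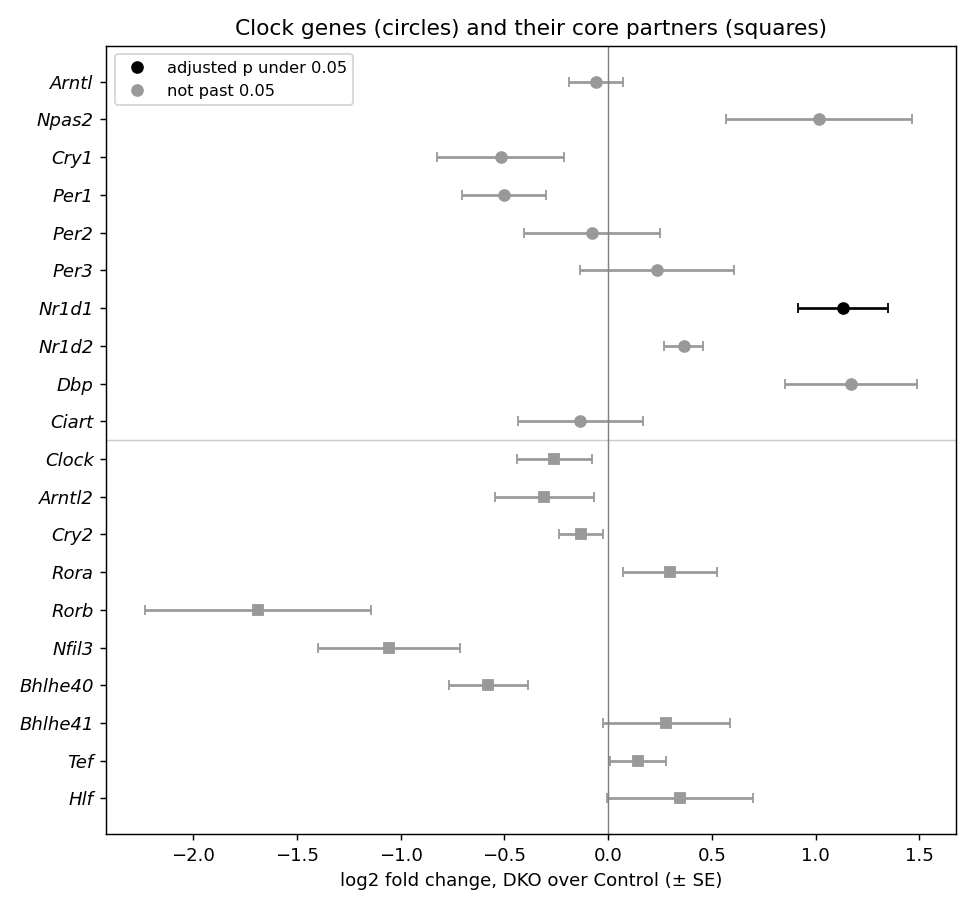
Log2 fold change of DKO over Control with its SE for the 10 clock genes (circles) and 10 core partners (squares) from edgeR; black symbols passed an adjusted p of 0.05. Nr1d1 (1.13) is the black symbol, Arntl (-0.06) sits close to 0, and Nfil3 (-1.06) and Rorb (-1.69) lie farthest below 0 without passing.

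Beyond the core, the 11 rhythmic output genes had a median log2 fold change of -0.24, against -0.02 over all genes tested. None passed as higher, as 0.759% of all genes tested did, and 1 fell, as 0.498% did. It was Tsc22d3 (gene 14605, chrX:140539528-140600522, minus strand), the gene of the glucocorticoid-induced leucine zipper protein, with 53.3, 56.7, 74.4 and 86.6 CPM in DKO libraries 1 to 4, against 97.8, 133, 135 and 155 CPM in Control libraries 1 to 4. The groups did not overlap (67.7 ± 15.6 CPM in DKO ovaries and 130 ± 23.9 CPM in Control ovaries, SD, n = 4 each; log2 fold change -0.94 ± 0.18 SE, adjusted p 0.0451, edgeR). Without any one of Control 2, 3 and 4 and DKO 1, 2 and 3 the adjusted p was 0.0587 to 0.167. Tsc22d3 was also the 1 gene called among 6 tested glucocorticoid-responsive genes, against 0.498% of all genes tested called as lower. The median log2 fold change of the 6 was -0.61, and Per1 is counted among them as well. Of the 6, 4 had an unadjusted p under 0.05, against 15.4% of all genes tested, and 3 lay wholly below Control, as in 3.54%. The 2 above 0 were Sgk1 (log2 fold change 0.53, adjusted p 0.353, edgeR) and Dusp1 (0.46, adjusted p 0.647, edgeR). The list's largest difference, named after its values were seen, was that of Zbtb16, which encodes the transcription factor PLZF. Zbtb16 had 6.42, 11.9, 20.3 and 23.8 CPM in DKO libraries 1 to 4, against 42.6, 61.4, 47.1 and 63.3 CPM in Control libraries 1 to 4. Its groups did not overlap, and its log2 fold change of -1.78 ± 0.37 (SE) did not pass with edgeR (adjusted p 0.0596), with adjusted p-values of 2.6e-05 (DESeq2) to 0.199 (edgeR without Control 2) over the alternatives. Of 13 genes that modify clock proteins none passed with edgeR (6 had an unadjusted p under 0.05, against 15.4% of all genes tested; median -0.13), the smallest adjusted p being that of Fbxl21, which encodes an F-box protein that acts on cryptochromes (1.33 ± 0.35, SE; 0.102, edgeR, and 0.00889 with DESeq2). Cipc, whose product inhibits CLOCK, also passed with DESeq2, in the opposite direction (log2 fold change -0.35, adjusted p 0.0464), and not with edgeR (0.157).

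Per1 is a known cAMP target, and of 8 cAMP-responsive genes none passed with edgeR. Of these, 1 had an unadjusted p under 0.05, against 15.4% of all genes tested, and the median log2 fold change was -0.38. Rgs2 had the smallest adjusted p (log2 fold change -0.62 ± 0.20 SE, adjusted p 0.158, edgeR, and 0.0367 with DESeq2). The summed level of the cAMP-responsive genes was 532, 476, 937 and 1065 CPM in DKO libraries 1 to 4, against 766, 964, 1111 and 1251 CPM in Control libraries 1 to 4. Much of this sum is Rgs2, at 320, 256, 401 and 501 CPM in DKO libraries 1 to 4 and 477 to 628 CPM in Control libraries. As with Per1, Per2 and Cry1, DKO 1 and 2 lay lowest in the sum and for each listed gene except Dusp1. Dusp1 was lowest in Control 1, at 28.9 CPM, and its log2 fold change was 0.46. The part of cAMP in the values of Per1, Per2 and Cry1 was not tested.

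**Figure D4:**
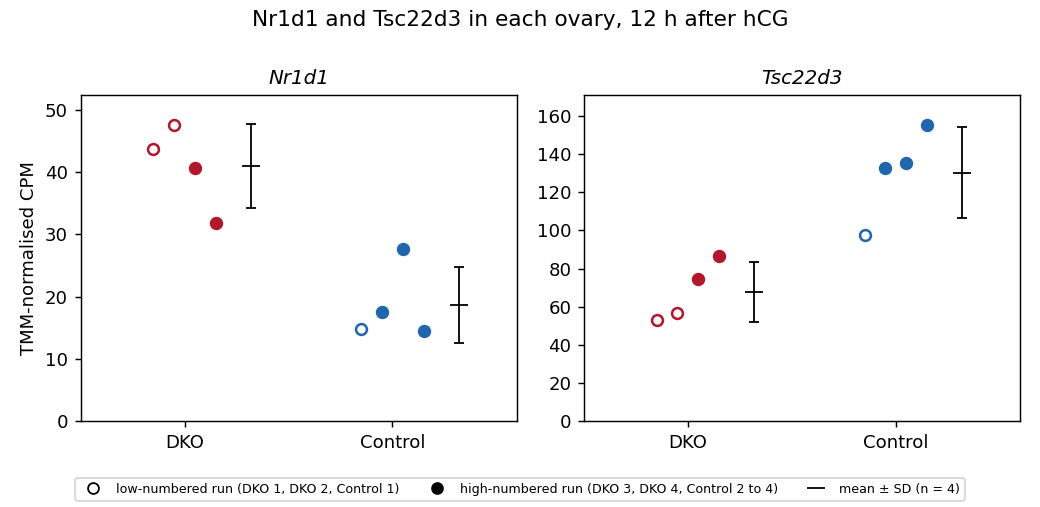
TMM-normalised CPM (linear axes from 0) of Nr1d1 and Tsc22d3, which passed an adjusted p of 0.05, DKO left of Control; points are libraries, open for the low-numbered run and filled for the high-numbered run, and bars are mean ± SD of 4. Nr1d1 is higher and Tsc22d3 is lower in every DKO library than in any Control library.

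By run of title numbers, Nr1d1 averaged 45.6 CPM in DKO 1 and 2, against 14.9 CPM in Control 1, and 36.2 CPM in DKO 3 and 4, against 19.9 CPM in Control 2 to 4. Nr1d2 gave 51.5 CPM in DKO 1 and 2, against 42.4 CPM in Control 1, and 50.8 CPM in DKO 3 and 4, against 38.8 CPM in Control 2 to 4. Dbp gave 16.7 CPM in DKO 1 and 2, against 10.9 CPM in Control 1, and 32.3 CPM in DKO 3 and 4, against 10.9 CPM in Control 2 to 4. Each of these 3 genes differed in the same direction in both runs, which follows from their groups not overlapping and adds no support. The low-numbered run holds 1 Control library and gave no test of its own. Per1 gave 58.6 CPM in DKO 1 and 2, against 106 CPM in Control 1, and 103 CPM in DKO 3 and 4, against 117 CPM in Control 2 to 4, and Per2 gave 15.5 against 27.5 CPM and 37.1 against 27.8 CPM in the same order. Whether the DKO effect differs between the runs was not tested.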

How the data were processed

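Libraries were made with a stranded mRNA kit, per the labels' protocols, and the authors deposited raw counts per gene. Per the file headers, featureCounts (Subread 1.5.2) summed reads on RefSeq exons of GRCm38.p5 with reverse-strand counting. STAR 2.4.2a, Trimmomatic (0.33 and 0.36), edgeR 3.12.0, bcl2fastq 2.17.1.14 and GRCm38.p3 are named in the submitters' processing notes. Symbols came from a RefSeq table of GRCm38.p6, used for names, which matched 40290 IDs (96.9%). Libraries within a group differed beyond sampling noise, and the labels do not say more of their origin than that they are separate samples, so p-values measure the spread between these samples. Genes passing filterByExpr were tested with edgeR 4.0.16 (quasi-likelihood, robust, TMM, no covariate, R 4.3.3), two-sided, with Benjamini-Hochberg adjustment over all 16870. CPM use TMM factors (0.943 to 1.06), log2 CPM a prior count of 2, and SE is the log2 fold change over the square root of F. Exact permutation tests covered all 70 assignments. Alternatives used DESeq2 1.42.0 and limma 3.58.1. In simulated data, 16.2% of 1.5-fold, 71.4% of 2-fold and 97.2% of 4-fold changes were called. These changes were placed in tested genes averaging 5 CPM or more, without a difference between runs, so the shares do not cover Ciart and Per3. All members and core partners were named, apart from results not reported here, and of each other list of clock, output, cAMP or glucocorticoid genes (not of the cell type markers) the called genes or else the one with the smallest adjusted p. For Arntl, Per1 and Dbp the 5 most alike genes were sought among genes averaging 5 CPM or more. The members and lists were chosen with earlier results of these data known.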

Additional observations from a re-analysis of the deposited data

Results flagged for a closer look

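In the DKO group, library 4 stood apart from its 3 replicates for 2 genes. Cry2, the second cryptochrome gene, had 62.97 CPM in DKO 4 against 51.7 to 52.93 CPM in DKO 1 to 3, and Igf1r had 247.0 CPM in DKO 4 against 199.6 to 204.9 CPM in DKO 1 to 3. Of 50 groups of 4 values examined with Dixon's ratio, about 1 in 20 passes the critical value by chance. No clock gene of the 10 stood apart in this way.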

How the results depend on the processing

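Of the 10 clock genes, 1 passed under the other scalings, filters, dispersion setting and limma-voom as well. The number was 3 with DESeq2 and with quality weights, 2 with the replicate block and 2 with a term for the run, 0 in the high-numbered run, 0 without Control 1 and DKO 2 together (an alternative chosen after seeing the data), and 0 to 1 when single libraries were left out. Over all genes the count was 1118 with DESeq2, 1651 with quality weights, 743 (4.4%) with the replicate block, 526 with the run term, 97 without Control 1 and DKO 2, and 2 to 506 when single libraries were left out. No pairing is given in the labels, and the correlations of deviations of same-numbered samples were mixed (0.156, -0.359, 0.312 and 0.468 for replicates 1 to 4). They do not settle whether replicate numbers pair the samples. Of 21 alternatives, Nr1d1 and Tsc22d3 each passed in 13, with unchanged sign in all. Without Control 1 and DKO 2, which hold high Ovgp1, Nr1d1 gave 0.97 (adjusted p 0.125, edgeR) and Tsc22d3 -0.97 (0.0564). Signs turned for genes that did not pass: Arntl -0.11 to 0.055 over the left-out libraries, above 0 without DKO 3; Per2 -0.31 to 0.12 over the left-out libraries, among them 0.045 without Control 4, 0.12 without DKO 1 and 0.11 without DKO 2, then 0.11 without Control 1 and DKO 2 together and 0.43 in the high-numbered run; Ciart -0.25 to 0.039, above 0 without Control 2; and Rora -0.15 and Igf1r 0.014 in the high-numbered run. Correlations with Arntl turned to 0.322 for Nr1d1 and 0.466 for Ciart without the 2 farthest libraries. The causes were not tested. Exact tests were not repeated with a library left out, since 35 assignments allow no p below 0.0571. Per3 and Ciart have no value under the filter of 5 CPM in 4 libraries. With a biological coefficient of variation of 0.281, changes below 2-fold were often missed in simulated data.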
